A study of Bos taurus with 36 samples.

Results

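Glycogen metabolism in the liver was described here through 9 genes, measured by 13 probe sets of the Affymetrix Bovine Genome Array. The genes were taken by name: every probe set that the array's annotation table assigns to one gene alone, where that gene is PPP1R3B, PPP1R3C, GYS2, GYG1, PYGL, PYGB, UGP2, GBE1 or PGM1. They are 9 of the 9155 genes that could be read on the array, and their probe sets are 13 of 24128. The set was selected on earlier results of the same arrays, in which PPP1R3B stood out by its low values against -22 h, so the differences of these genes from -22 h are given as a description. Where it is counted how many of the 9 were past the threshold, against -22 h or between later hours, nothing is read from the count.

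In this study 8 healthy Holstein-Friesian cows, all first-lactation animals that had calved 9 to 12 weeks before, received 200 µg E. coli LPS (lipopolysaccharide, the outer membrane component of Gram-negative bacteria) into the right front mammary gland at time 0. The left front gland of the same cow received 10 ml saline. Liver biopsies were taken at -22 h, 9 h and 48 h from all 8 cows and also at 3 h, 6 h and 12 h from 4 of them (cows 1, 3, 7 and 8), which gave 36 arrays. The -22 h biopsy of each cow is its reference. No array holds liver of a cow that received saline alone, so the LPS, the time of day and the repeated biopsies cannot be told apart in these values. The study does report a control study of saline-infused cows, in which biopsy changed neither clinical measures nor some selected genes. It does not name those genes. Each value is a log2 signal of a probe set, so a difference of 1 is 2-fold.

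Liver stores glucose as glycogen. PGM1 turns glucose 6-phosphate into glucose 1-phosphate, UGP2 makes UDP-glucose from it, GYG1 primes a new chain, GYS2 (the liver glycogen synthase) lengthens it and GBE1 adds branches. Glycogen phosphorylase, PYGL in liver and PYGB in brain, releases glucose 1-phosphate from the chain. PPP1R3B (also called GL) and PPP1R3C (also called PTG) bring protein phosphatase 1 to the glycogen particle, where it activates the synthase and inactivates phosphorylase. PPP1R3B is the main such subunit in liver and also binds phosphorylase a.

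The liver origin of the arrays was plain, with ALB at 16.09 ± 0.03 at 9 h and 16.14 ± 0.11 at -22 h (log2 signal, SD, n = 8 each). Array medians ran between 4.15 and 4.38, and the values of all probe sets between 0.686 and 16.37. Levels near 4 are therefore those of the dimmer part of the array. Of the 36 arrays, 3 lay farthest from the median of their hour: cow 7 at -22 h, cow 1 at -22 h and cow 2 at 48 h. These are the 3 said below to stand apart. Cow 7 at -22 h had hybridization controls at a mean of 13.39, against 11.01 to 11.66 on the other -22 h arrays. No clear gap set off cow 1 at -22 h, whose root mean square log2 distance was 0.506, against 0.49 for cow 8 at 12 h. Markers of neutrophils moved with the hours. All 5 that were read passed the test as higher at 9 h, MPO by only 0.06 near the lower end of the scale, and the log2 of their summed signal was 12.38 to 15.01 at 9 h and 6.72 to 8.13 at -22 h. Of the 9 hepatocyte markers, 6 were lower and 1 was higher at 9 h, and the log2 of their summed signal was 17.93 to 18.12 at 9 h and 18.01 to 18.36 at -22 h. Endothelial markers were lower, as most of the 9 glycogen genes were: 3 of 5 were lower at 9 h (log2 differences of -1.47 for TEK, -1.10 for PECAM1 and -0.84 for CDH5), 1 was higher (KDR, 0.07, near the lower end of the scale) and VWF did not pass. The log2 of their summed signal was 8.67 to 9.18 at 6 h, 8.39 to 9.09 at 9 h and 8.87 to 10.07 at 48 h, against 9.56 to 10.59 at -22 h. Of 6 macrophage markers 3 were lower and 0 higher at 9 h, with MSR1 at -3.22 at 6 h and -2.35 at 9 h against -22 h, and the log2 of their sum was 12.78 to 13.44 at 9 h and 13.02 to 13.50 at -22 h. The part of these shifts in the results on glycogen genes was not tested. In a biopsy of mixed cells, fewer cells of a type and less RNA per cell cannot be told apart.

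PPP1R3B (Entrez gene 514428) was high in untreated liver and almost gone from the signal at 9 h. At 48 h it was higher again but still below every -22 h value. At -22 h its log2 signal was 10.87, 11.18 and 11.50 (lowest, median and highest of 8 cows). At 3 h cows 1, 3, 7 and 8 had 9.58, 10.92, 9.24 and 9.98, and at 6 h they had 6.11, 5.82, 4.94 and 5.65. Cows 1, 7 and 8 were already below every -22 h value at 3 h, while cow 3 was still within their range. At 9 h the 8 cows had 3.06, 4.18 and 5.45 (lowest, median, highest), with cow 2 lowest and cow 5 highest. At 12 h cows 1, 3, 7 and 8 had 8.12, 7.10, 7.62 and 7.54. At 48 h the 8 cows lay between 9.94 and 10.49, with a median of 10.18. The 9 h values were at the level of the array medians, so the fold difference there is limited by the lower end of the scale. The 48 h values still did not overlap those of -22 h.

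Against -22 h, PPP1R3B differed by -1.24 at 3 h (SE 0.29), -5.54 at 6 h (SE 0.29), -6.93 at 9 h (SE 0.24), -3.57 at 12 h (SE 0.29) and -0.97 at 48 h (SE 0.24) on the log2 scale. At 9 h this is a 122-fold lower signal, with 8 of 8 cows lower and single cows between -7.92 and -5.86. Only 6 of the 9155 genes had a lower log2 difference at 9 h, and the gene held the same place, the 7th lowest, at 6 h. These figures describe the values by which the gene was chosen.

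**Figure D1:**
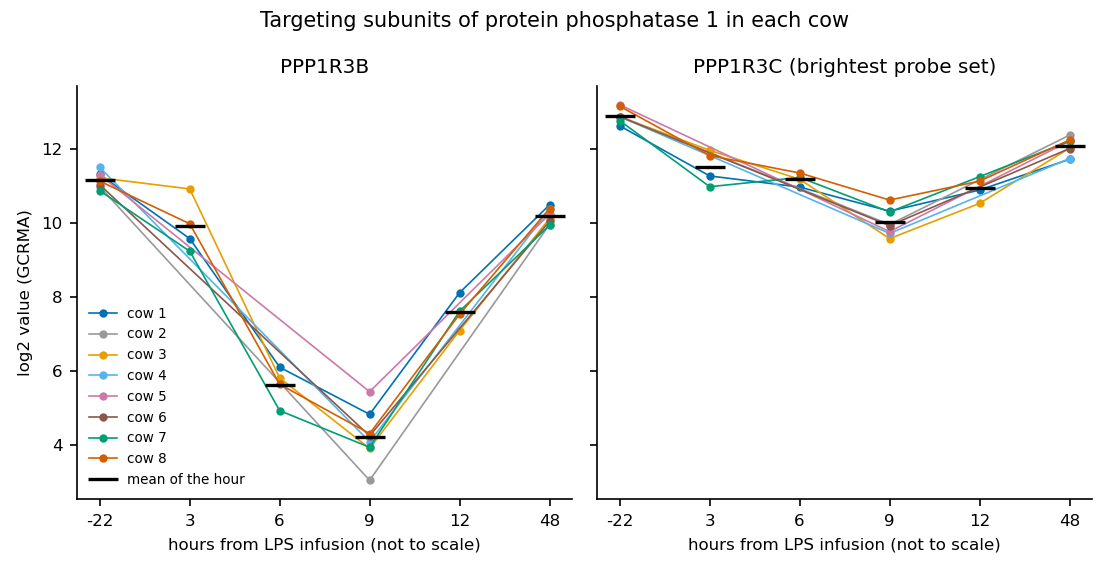
Log2 signal of PPP1R3B (left) and PPP1R3C (right, brightest of 3 probe sets) on the vertical axis, which both panels share, against the 6 hours on the horizontal axis; each coloured line is 1 cow and each black bar is the mean of an hour. PPP1R3B reached means of 4.24 at 9 h and 10.20 at 48 h, and PPP1R3C means of 10.03 at 9 h and 12.07 at 48 h.

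Differences between hours after infusion were tested with limma, with 1 mean per hour over all 36 arrays and Benjamini-Hochberg adjustment over all 24128 probe sets. For PPP1R3B they carry no p here, because its low values on these arrays picked the gene out. Its log2 differences were -4.30 for 6 h over 3 h (SE 0.33, 4 of 4 cows lower), -1.39 for 9 h over 6 h (SE 0.29, 4 of 4 lower) and 3.36 for 12 h over 9 h (SE 0.29, 4 of 4 higher). At 48 h it was higher by 2.60 than at 12 h (SE 0.29, 4 of 4 cows) and by 5.96 than at 9 h (SE 0.24, 8 of 8 cows).

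Each cow's later values were also set against its own 9 h difference. At 12 h the 4 cows sampled then still had 49.3%, 56.4%, 47.0% and 52.8% of their own 9 h log2 difference from -22 h (cows 1, 3, 7 and 8). At 48 h the 8 cows kept between 10.9% and 18.2% of it. The 9 h values had an SD of 0.70 and lay at the level of the array medians, which limits the difference these shares are taken of.

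PPP1R3C, the other targeting subunit, was lower from 3 h on and lowest at 9 h, with a smaller span than PPP1R3B. The brightest of 3 probe sets for PPP1R3C (Entrez gene 539466) was at 12.62, 12.87 and 13.19 at -22 h (lowest, median, highest of 8 cows). At 3 h cows 1, 3, 7 and 8 had 11.27, 11.96, 10.98 and 11.82, which all lie below the -22 h range. At 6 h they had 10.97, 11.18, 11.23 and 11.35, and at 12 h 10.89, 10.53, 11.25 and 11.13. The 8 cows had 9.58, 9.95 and 10.62 at 9 h and 11.72, 12.11 and 12.37 at 48 h (lowest, median, highest). No value after the infusion reached the -22 h range on this probe set, 48 h included. The log2 differences from -22 h were -1.39, -1.72, -2.87, -1.95 and -0.83 at 3, 6, 9, 12 and 48 h (SE 0.14 to 0.18), with every cow lower at each hour.

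Both other PPP1R3C probe sets moved with it, at r of 0.98 and 0.96 over the 36 arrays. They gave log2 differences of -3.23 (SE 0.18) and -3.25 (SE 0.21) at 9 h against -22 h, with every cow lower. At 48 h both overlapped the -22 h values, with 7 of 8 cows lower and differences of -0.81 (SE 0.18) and -0.68 (SE 0.21). On the brightest probe set PPP1R3C did not pass the test between 6 h and 3 h (log2 difference -0.32, SE 0.20, adjusted p = 0.18). It fell by 1.16 at 9 h against 6 h (SE 0.18, adjusted p = 5.2e-06, 4 of 4 cows) and rose by 0.93 at 12 h over 9 h (SE 0.18, adjusted p = 0.00019, 4 of 4 cows) and by 1.11 at 48 h over 12 h (SE 0.18, adjusted p = 2.8e-06, 4 of 4 cows). These contrasts share arrays with the comparison to -22 h that was known when the genes were chosen. PPP1R3C had 32nd place from the lowest among 9155 genes at 3 h against -22 h, and PPP1R3B 46th place, while at 9 h PPP1R3C stood at 204.

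Among the enzymes of synthesis, PGM1, GYS2 and GBE1 had their lowest hourly mean at 12 h, GYG1 at 6 h, and UGP2 had its highest mean at 12 h. Both targeting subunits had their lowest mean at 9 h. The means are over 8 cows at 9 h and over 4 at 6 h and 12 h. At 12 h against 9 h GBE1 passed the test, while PGM1, GYS2 and UGP2 did not. GYG1 did not pass it at 9 h against 6 h.

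PGM1 (Entrez gene 534402, on the brighter of 2 probe sets) began at 10.44, 10.95 and 11.29 at -22 h (lowest, median, highest). Cows 1, 3, 7 and 8 had 10.44, 10.93, 10.69 and 11.04 at 3 h, 9.60, 9.71, 9.82 and 10.06 at 6 h, and 8.97, 8.32, 8.54 and 8.47 at 12 h. All 8 cows together had 8.26, 8.85 and 9.09 at 9 h and 10.45, 11.27 and 11.42 at 48 h (lowest, median, highest). The 3 h values lay among those of -22 h, those of 6, 9 and 12 h lay wholly below them, and those of 48 h overlapped them again. Log2 differences from -22 h were -0.16, -1.14, -2.19, -2.36 and 0.24 at the 5 hours in order (SE 0.14 to 0.17). PGM1 fell by 0.98 at 6 h against 3 h (SE 0.20, adjusted p = 0.0002) and by a further 1.05 at 9 h against 6 h (SE 0.17, adjusted p = 1.9e-05), in 4 of 4 cows each time. At 12 h against 9 h the difference was -0.17 (SE 0.17, adjusted p = 0.55), with 2 cows higher and 2 lower. PGM1 then rose by 2.60 at 48 h over 12 h (SE 0.17, adjusted p = 4.3e-14, 4 of 4 cows). The second probe set followed the first at r = 0.99 over 36 arrays and gave -2.30 (SE 0.12) at 9 h and -2.48 (SE 0.15) at 12 h against -22 h.

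UGP2 (Entrez gene 281565) was the one gene of the 9 whose mean lay above -22 h at both 6 h and 9 h. Its log2 signal was 12.62, 12.81 and 13.12 at -22 h (lowest, median, highest of 8 cows). In cows 1, 3, 7 and 8 it was 12.81, 13.30, 12.99 and 13.13 at 3 h, 13.14, 13.03, 13.39 and 13.36 at 6 h, and 14.07, 13.69, 13.95 and 14.18 at 12 h. Over the 8 cows it was 13.20, 13.65 and 14.42 at 9 h and 12.41, 12.74 and 13.24 at 48 h. The values of 9 h and of 12 h lay wholly above those of -22 h. UGP2 differed from -22 h by 0.23, 0.41, 0.87, 1.15 and -0.07 on the log2 scale at the 5 hours in order (SE 0.13 to 0.16). In the single cows the 9 h difference ran between 0.26 (cow 3) and 1.75 (cow 5). UGP2 was higher by 0.46 at 9 h than at 6 h (SE 0.16, adjusted p = 0.029, 4 of 4 cows), a call that was lost when any of cows 1, 3, 4, 5, 7 or 8 was left out (log2 difference 0.36 to 0.52 over all 8 such fits). It fell by 1.22 at 48 h against 12 h (SE 0.16, adjusted p = 7.8e-08, 4 of 4 cows).

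GYG1 (Entrez gene 280812) had its lowest hourly mean at 6 h and was back among the -22 h values by 12 h. In the 8 cows the signal was 6.69, 7.56 and 8.05 at -22 h (lowest, median, highest). Cows 1, 3, 7 and 8 had 7.67, 7.53, 6.84 and 7.12 at 3 h, 6.52, 6.33, 5.75 and 6.26 at 6 h, and 8.01, 7.81, 6.98 and 7.36 at 12 h. The 8 cows had 6.23, 6.61 and 7.36 at 9 h and 6.70, 7.01 and 7.70 at 48 h. Only the 6 h values lay clear of the -22 h range. The 9 h values overlapped those of 6 h. Between these hours GYG1 did not pass the test (0.45 at 9 h against 6 h, SE 0.23, adjusted p = 0.2). Of the 4 cows sampled at both, 3 were higher at 9 h, with single cows between -0.04 and 0.83. GYG1 fell by 1.08 at 6 h against 3 h (SE 0.27, adjusted p = 0.0019, 4 of 4 cows), and was higher by 0.88 at 12 h than at 9 h (SE 0.23, adjusted p = 0.0057, 4 of 4 cows). That second call was lost without cow 1 (0.72, adjusted p = 0.077) and without cow 3 (0.75, adjusted p = 0.061). At 48 h against 12 h it differed by -0.42 (SE 0.23, adjusted p = 0.18, 4 of 4 cows lower), and with the cow as a block by -0.58 (adjusted p = 0.0031). Log2 differences from -22 h were -0.19, -1.26, -0.81, 0.07 and -0.35 at the 5 hours in order (SE 0.19 to 0.23).

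GYS2 (Entrez gene 537451), the synthase on which the phosphatase complex acts, was above its -22 h mean at 3 h and below it from 6 to 12 h. Across 8 cows it was 10.54, 10.82 and 11.60 at -22 h (lowest, median, highest). Cows 1, 3, 7 and 8 had 11.06, 11.49, 11.80 and 11.58 at 3 h, then 9.45, 9.94, 10.06 and 10.03 at 6 h. For the 8 cows the values were 8.29, 9.39 and 9.75 at 9 h. The 6 h and 9 h values all lay below those of -22 h. The 3 h values overlapped those of -22 h, with 3 of 4 cows higher. At 12 h the 4 cows parted, with 10.26 in cow 1, 8.28 in cow 3, 9.39 in cow 7 and 7.94 in cow 8. At 48 h the 8 cows were close together again, at 11.17, 11.59 and 11.67 (lowest, median, highest), and overlapped the -22 h values. GYS2 fell by 1.61 at 6 h against 3 h (SE 0.34, adjusted p = 0.00024), with the 4 cows between -1.74 and -1.55. It did not pass the test at 9 h against 6 h (-0.66, SE 0.29, adjusted p = 0.11, 4 of 4 cows lower), but did without cow 1 (-0.67, adjusted p = 0.048). At 12 h against 9 h the mean difference of -0.24 (SE 0.29, adjusted p = 0.6) joined a cow that was 1.97 higher, cow 1, with 3 that were lower. The difference was -0.81 without cow 1 (adjusted p = 0.022). It was 0.02 without cow 3 (adjusted p = 0.98) and 0.12 without cow 8 (adjusted p = 0.85), so its sign hung on single cows. GYS2 rose by 2.55 at 48 h over 12 h (SE 0.29, adjusted p = 6.9e-09, 4 of 4 cows). Its differences from -22 h were 0.59, -1.02, -1.68, -1.92 and 0.63 on the log2 scale (SE 0.24 to 0.29).

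GBE1 (Entrez gene 615745) went on falling after 9 h. The 8 cows had 10.28, 11.04 and 11.16 at -22 h (lowest, median, highest), with cow 7 alone below 10.77. Cows 1, 3, 7 and 8 had 10.73, 10.20, 10.20 and 10.93 at 3 h and 10.47, 10.12, 10.34 and 10.64 at 6 h. The 9 h values were 9.45, 9.84 and 10.05 in the 8 cows, and the 12 h values 9.07, 8.87, 9.27 and 9.25 in the 4. The hours 6, 9 and 12 did not overlap one another. At 48 h the 8 cows had 10.67, 11.22 and 11.56, among the -22 h values and above them. GBE1 fell by 0.56 at 9 h against 6 h (SE 0.16, adjusted p = 0.0064, 4 of 4 cows; -0.52, adjusted p = 0.052 without cow 1) and by a further 0.71 at 12 h against 9 h (SE 0.16, adjusted p = 0.00093, 4 of 4 cows). It rose by 2.05 at 48 h over 12 h (SE 0.16, adjusted p = 1e-12, 4 of 4 cows). Its differences from -22 h were -0.42, -0.54, -1.10, -1.82 and 0.23 (SE 0.13 to 0.16).

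**Figure D2:**
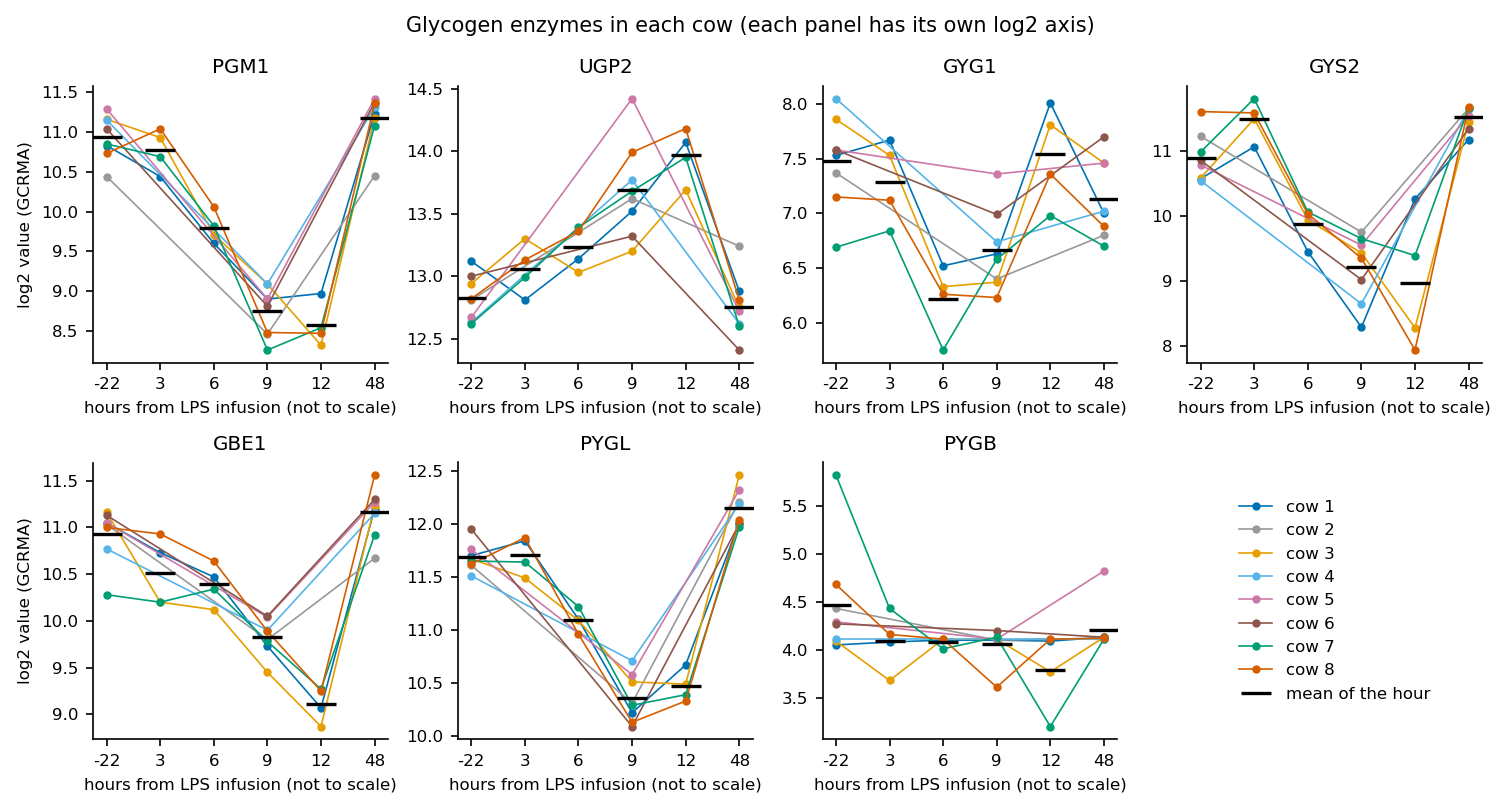
Log2 signal of the 5 synthesis enzymes and both phosphorylases against the 6 hours, with 1 coloured line per cow, black bars for the mean of each hour and a separate vertical axis in each panel. UGP2 peaks at 12 h with a mean of 13.97, and GYG1 has its lowest mean at 6 h (6.21). The 4 cows part at 12 h in GYS2 (7.94 to 10.26), and PYGB stays near 4.

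PYGL (Entrez gene 505472, on the brighter of 2 probe sets), the phosphorylase that breaks liver glycogen down, was lower from 6 to 12 h and above its starting level at 48 h. Its log2 signal in the 8 cows was 11.51, 11.66 and 11.95 at -22 h (lowest, median, highest). Cows 1, 3, 7 and 8 had 11.84, 11.49, 11.64 and 11.87 at 3 h, 11.10, 11.09, 11.22 and 10.96 at 6 h, and 10.67, 10.49, 10.39 and 10.33 at 12 h. Lowest, median and highest were 10.09, 10.30 and 10.71 at 9 h and 11.97, 12.11 and 12.46 at 48 h. The values of 6, 9 and 12 h lay wholly below those of -22 h, and the 48 h values wholly above them, in 8 of 8 cows. PYGL fell by 0.62 at 6 h against 3 h (SE 0.12, adjusted p = 0.0001) and by 0.74 at 9 h against 6 h (SE 0.10, adjusted p = 1.6e-06), in 4 of 4 cows each. At 12 h against 9 h it differed by 0.12 (SE 0.10, adjusted p = 0.51, 3 of 4 cows higher). It rose by 1.68 at 48 h over 12 h (SE 0.10, adjusted p = 6.9e-15, 4 of 4 cows). Its log2 differences from -22 h were 0.02, -0.60, -1.33, -1.21 and 0.46 (SE 0.08 to 0.10). On the second probe set, with r = 0.95 to the first, they were -1.88 (SE 0.14) at 9 h and 0.33 (SE 0.14) at 48 h, and there the 48 h values overlapped those of -22 h.

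PYGB (Entrez gene 505560), the brain form, stayed near the array medians, with hourly means of 4.47, 4.09, 4.08, 4.06, 3.79 and 4.21 from -22 h to 48 h. Apart from cow 7 at -22 h, with 5.82, no value was above 4.82. None of its differences between hours after infusion passed the test (adjusted p between 0.14 and 1). Its difference from -22 h at 12 h was -0.67 (SE 0.22), and -0.28 without cow 7.

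Most of the 9 genes lay below -22 h between 6 and 12 h, and UGP2 lay above it. Past the threshold of adjusted p below 0.05 against -22 h, 0 were higher and 2 lower at 3 h, where 4.47% and 2.57% of all 9155 genes were. At 6 h 1 was higher and 7 lower, beside 26.0% and 29.3% of all genes, and at 9 h 1 and 7, beside 36.6% and 28.4%. At 12 h 1 was higher and 7 lower, beside 30.9% and 22.2%, and at 48 h 2 and 2, beside 15.0% and 16.2%. The 7 at 12 h held PYGB, near the array medians, in place of GYG1. Without cow 7, PYGB was no longer past the threshold there (-0.28). The gene counted as higher at 6 h was UGP2 (log2 difference 0.41), which was no longer past the threshold without cow 4 (0.38), 7 (0.32) or 8 (0.36) or with the 4 fully sampled cows (0.36), and GBE1 at 6 h was no longer past it with those 4 cows (-0.48). The 48 h background was unsteady, with 2855 genes past the threshold in either direction and 1641 to 3352 when single cows were left out (1641 without cow 1). Since these contrasts were known when the genes were chosen, nothing is read from these shares. Between hours after infusion, 0 of the 9 rose and 5 fell at 6 h against 3 h, beside 28.7% and 25.2% of all genes. At 9 h against 6 h 1 rose and 5 fell (19.8% and 13.4%), and at 12 h against 9 h 3 rose and 1 fell (16.3% and 10.5%). At 48 h 6 rose and 1 fell against 12 h (19.8% and 32.4%), and 7 rose and 1 fell against 9 h (26.4% and 32.5%). These counts include PPP1R3B and share arrays with the comparisons to -22 h, so nothing is read from them either. The balance over all genes at 48 h turned with the scaling. With each array centred on its median, 3860 genes were higher and 2704 lower at 48 h against 12 h (1815 and 2967 without centring), 4339 and 2700 against 9 h (2413 and 2975), and 3174 and 944 against -22 h (1369 and 1486). Of the 9 genes, 8, 8 and 6 were then past the threshold in these 3 comparisons, against 7, 8 and 4 without centring. The median log2 difference of the 9 genes was -1.33 at 9 h against -22 h and 1.80 at 48 h against 9 h, where the medians over all genes were 0.04 and 0.00.

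**Figure D3:**
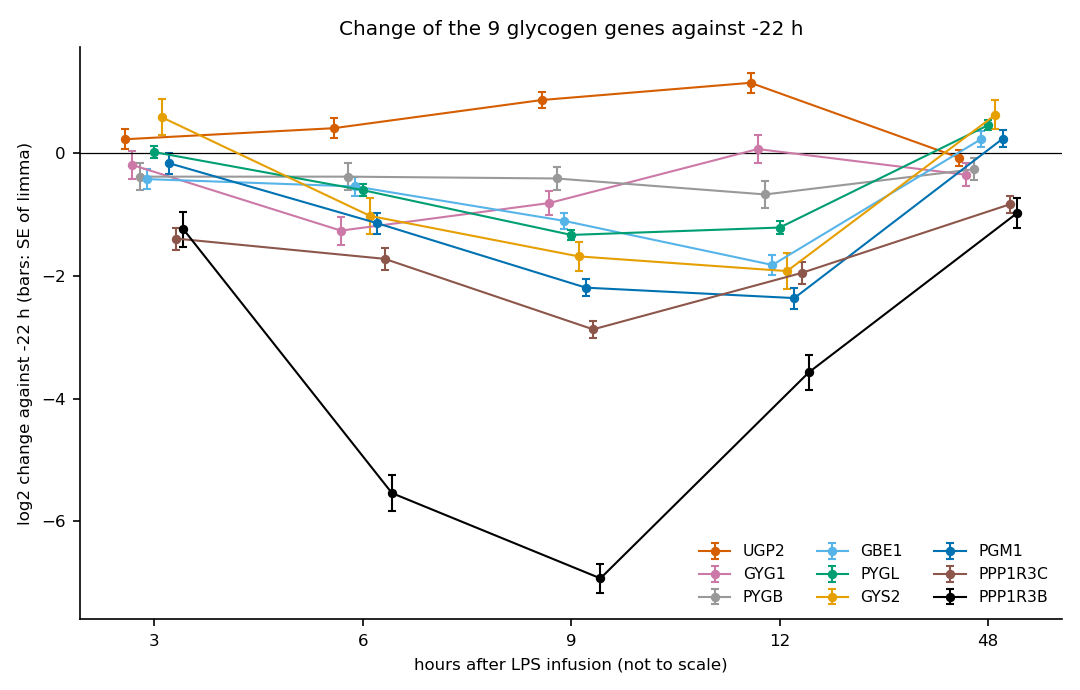
Log2 difference from -22 h (vertical axis) of each of the 9 genes at 3, 6, 9, 12 and 48 h (horizontal axis, not to scale), with bars for the SE of the limma fit; the points are values by which the set was chosen. PPP1R3B lies lowest from 6 to 12 h, with -6.93 at 9 h, and UGP2 alone lies above 0 at 6 and 9 h.

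The genes differed in how much of the 9 h difference was left at 12 h. Those whose mean was lower by more than 1 log2 unit at 9 h were set side by side, each cow against its own -22 h biopsy. The share left was 47.0% to 56.4% for PPP1R3B, whose 9 h values lay at the level of the array medians, and 61.5% to 79.8% for PPP1R3C. For PGM1 it was 89.3% to 137.5%, for PYGL 69.8% to 101.5% and for GBE1 133.7% to 201.4%. The 201.4% came from cow 7, whose -22 h array stands apart and had a low GBE1 value (10.28). The other cows reached 157.7% at most for GBE1. GYS2 spanned 13.4% in cow 1 to 200.2% in cow 3. In these 4 cows both targeting subunits were on the way back at 12 h, while GBE1 was farther from its start than at 9 h in each cow. No test was made between the shares.

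**Figure D4:**
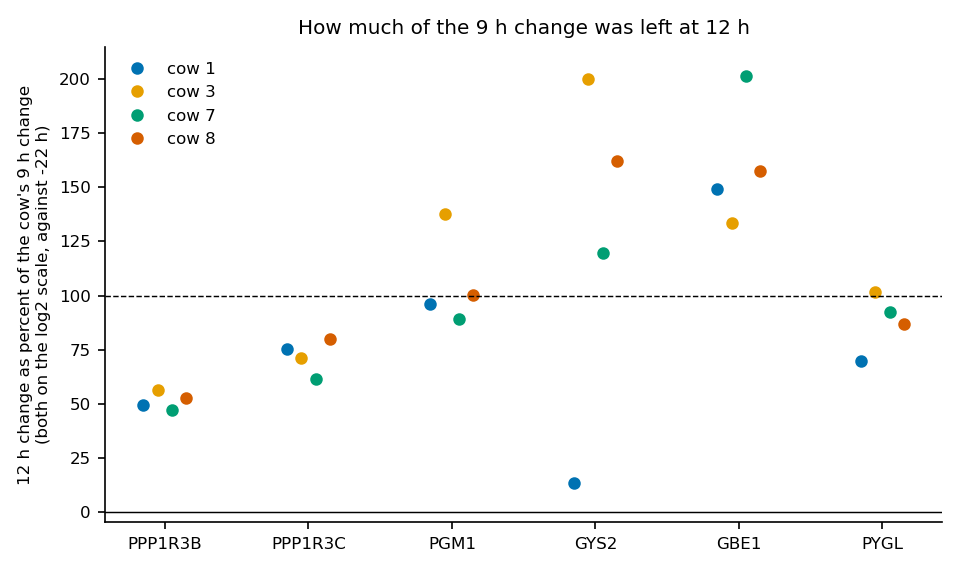
Log2 difference at 12 h from -22 h as a percent of the same cow's difference at 9 h (vertical axis), for the 6 genes lower by more than 1 log2 unit at 9 h (horizontal axis); each point is 1 of the 4 cows sampled at both hours, and the dashed line at 100 marks no change between 9 h and 12 h. PPP1R3B lies between 47.0% and 56.4%, and GBE1 between 133.7% and 201.4%.

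Likeness over the 36 arrays followed the hours. The Pearson r with PPP1R3B was 0.90 for PPP1R3C, 0.85 for PGM1, 0.83 for PYGL, 0.75 for GYS2, 0.67 for GBE1, 0.64 for GYG1, -0.67 for UGP2 and 0.30 for PYGB. Once the mean of each hour was taken off, r with PPP1R3B lay between -0.20 and 0.48. PGM1 and PYGL had the highest r among the other pairs, 0.95, which was 0.23 without the hourly means. The arrays share cows and one normalization, so these values describe the courses only.

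Of 5891 other genes with a mean log2 signal of at least 5, those most like PPP1R3B over the 36 arrays were CGN (r = 0.98), SPG21, DIP2C, PDK2, RRM1 and HLF (r = 0.97 each). CGN, which encodes the tight junction protein cingulin, differed from -22 h by -5.31 at 6 h (SE 0.33), -6.94 at 9 h (SE 0.27), -3.62 at 12 h (SE 0.33) and -0.13 at 48 h (SE 0.27). PDK2, a kinase that inhibits pyruvate dehydrogenase, had -2.92, -3.80, -1.74 and -0.16 at the same hours (SE 0.14 to 0.17), and HLF, a bZIP transcription factor of liver, -3.40, -5.13, -2.65 and -0.16 (SE 0.18 to 0.22). These 3 courses share the low at 9 h and the middle level at 12 h with PPP1R3B, and ended nearer to -22 h than its -0.97. The most opposite genes were EXOSC3, a subunit of the RNA exosome, TAF2, a subunit of TFIID, and NOP2, a ribosomal RNA methyltransferase (r = -0.96 each), with log2 differences of 2.32, 1.90 and 3.54 at 9 h (SE 0.09 to 0.12).

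The genes around the pathway came from 7 lists arranged by role, 46 genes in all. The background at 9 h against -22 h is again 36.6% of genes higher and 28.4% lower. Of 4 genes for phosphorylase kinase and its calmodulin subunit, 1 rose and 3 fell. PHKA2, the liver regulatory subunit, fell to 4.10 ± 0.35 at 9 h, against 6.70 ± 0.27 at -22 h (SD, n = 8, log2 difference -2.60, SE 0.17, adjusted p = 1.3e-14). Its 9 h level was near the array medians, which limits this difference. PHKG2, the catalytic subunit of liver and testis, rose by 0.65 (SE 0.13, adjusted p = 4.7e-05). The calmodulin genes read as CALM3 and CALM fell by 1.31 (SE 0.16) and 0.84 (SE 0.13). Each of these 4 differences had all 8 cows on one side.

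Of 7 other genes for protein phosphatase 1, 4 rose and 2 fell at 9 h. The catalytic subunit PPP1CB rose to 13.29 ± 0.21 at 9 h, against 12.32 ± 0.13 at -22 h (SD, n = 8, log2 difference 0.96, SE 0.07, adjusted p = 3.4e-13). PPP1R2, inhibitor-2 of the phosphatase, rose by 1.56 (SE 0.16, adjusted p = 4.5e-10). PPP1R1A, the inhibitor that cyclic AMP kinase switches on, fell by 1.48 (SE 0.51, adjusted p = 0.016) from a low level, with 7 of 8 cows lower. PPP1R3F, a further targeting subunit, rose by 0.97 (SE 0.20, adjusted p = 8.7e-05) to a mean of 4.62, near the array medians.

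Among 9 kinase genes that act on the synthase or sense energy, 5 rose and 2 fell at 9 h. GSK3A and GSK3B, which encode both forms of glycogen synthase kinase 3, moved apart. GSK3A rose to 11.87 ± 0.16 at 9 h, against 9.50 ± 0.18 at -22 h (SD, n = 8, log2 difference 2.37, SE 0.09, adjusted p = 3.9e-20). GSK3B fell to 5.50 ± 0.52 at 9 h, against 7.30 ± 0.29 at -22 h (log2 difference -1.79, SE 0.20, adjusted p = 1.9e-09). Likewise AMP kinase subunit PRKAB1 rose by 0.97 (SE 0.15) and the catalytic PRKAA1 fell by 1.26 (SE 0.23) to a mean of 4.24, near the array medians.

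Genes that bring glucose 6-phosphate in or let glucose out were 2 higher and 4 lower of 9 at 9 h. SLC2A1 (GLUT1) rose to 8.54 ± 0.26 at 9 h, against 5.88 ± 0.29 at -22 h (SD, n = 8, log2 difference 2.65, SE 0.17, adjusted p = 8.5e-15). SLC2A2 (GLUT2, the glucose carrier of hepatocytes) fell to 5.90 ± 0.77 at 9 h, against 7.82 ± 0.76 at -22 h (log2 difference -1.93, SE 0.28, adjusted p = 5.7e-07). SLC37A4, the glucose 6-phosphate carrier of the endoplasmic reticulum, fell by 1.95 (SE 0.18), and GPI, which links glucose 6-phosphate to glycolysis, by 1.85 (SE 0.15). Each of the 4 had all 8 cows on one side. Of the 2 other glycogen enzymes, GAA, the lysosomal glucosidase, fell by 0.57 (SE 0.09), and PYGM, the muscle phosphorylase, was at 2.44 ± 0.07 at 9 h and 2.37 ± 0.05 at -22 h (SD, n = 8 each, adjusted p = 0.82).

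The list of enzymes of UDP-sugars and galactose held the widest span. GALT, which exchanges UDP-glucose for UDP-galactose, fell to 4.37 ± 0.35 at 9 h, against 9.21 ± 0.20 at -22 h (SD, n = 8, log2 difference -4.84, SE 0.20, adjusted p = 1.8e-19). Its 9 h level was that of the array medians, so this difference is limited by the lower end of the scale. GALM and GALK1, both earlier in galactose breakdown, fell by 2.20 (SE 0.10) and 1.46 (SE 0.27). UAP1, which makes UDP-N-acetylglucosamine, rose to 13.49 ± 0.22 at 9 h, against 10.15 ± 0.47 at -22 h (log2 difference 3.34, SE 0.26, adjusted p = 5.4e-13). In all 2 of 6 rose and 3 fell, and the 3 that fell were the 3 galactose enzymes.

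Of 9 genes for hormone signalling, 2 rose and 5 fell at 9 h. INSR, the insulin receptor, fell to 3.79 ± 0.58 at 9 h, against 5.41 ± 1.14 at -22 h (SD, n = 8, log2 difference -1.62, SE 0.40, adjusted p = 0.00089), with 8 of 8 cows lower. Its 9 h level was below the array medians, which limits this difference. PRKAR2A, a regulatory subunit of cyclic AMP kinase, fell by 1.23 (SE 0.09). AKT1 rose by 1.04 (SE 0.06) and AKT2 fell by 0.85 (SE 0.15), both of them kinases downstream of insulin. The second gene counted as higher, ADRA1A, differed by 0.03 at a level near the lower end of the scale.

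**Figure D5:**
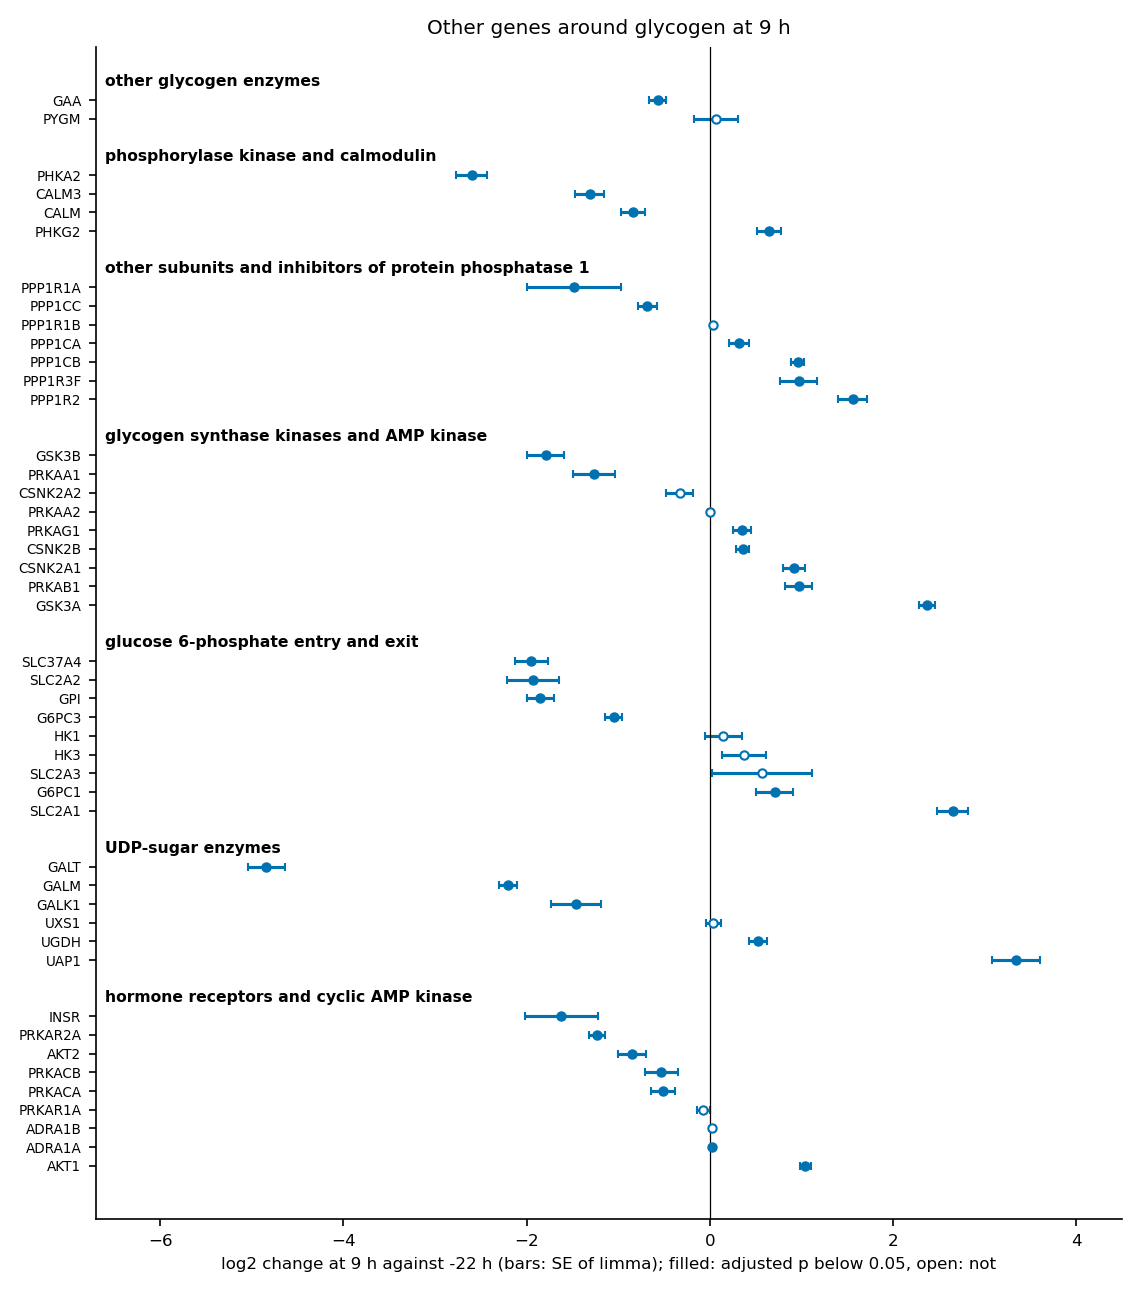
Log2 difference at 9 h from -22 h (horizontal axis) of 46 genes around glycogen, grouped by list down the vertical axis, with bars for the SE of the limma fit; filled points had an adjusted p below 0.05 and open points did not. GALT lies lowest at -4.84 and UAP1 highest at 3.34, and GSK3A (2.37) and GSK3B (-1.79) lie on opposite sides of 0.

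Markers of other cells that hold glycogen genes were read beside these results. Skeletal muscle, in which PPP1R3C is abundant, had 8 markers read, of which 1 (CKM) was higher at 9 h and 0 lower. The log2 of their summed signal was 8.50 to 11.97 at -22 h, 11.75 to 12.36 at 3 h and 12.12 to 12.62 at 6 h. It was 11.13 to 12.18 at 9 h, 11.46 to 13.20 at 12 h and 8.03 to 13.47 at 48 h. CKM rose by 2.97 (SE 0.40, adjusted p = 1e-07), while MYL1 was at 3.04 ± 0.80, TNNC2 at 4.08 ± 0.84 and TNNT3 at 1.93 ± 0.09 at 9 h (SD, n = 8), among the dim probe sets. Adipocyte markers were near the lower end of the scale at every hour (log2 of the sum 3.84 to 4.06), and PYGM was as low. The part of muscle RNA in the PPP1R3C values was not tested.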

How the data were processed

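RNA of 36 liver biopsies was measured on Affymetrix Bovine Genome Arrays, 1 biopsy per array. The deposited log2 values had been made by the authors with GCRMA (background from a probe sequence model, quantile normalization, 1 value per probe set); its version is not given in the sources used here. Arrays give no read depth, so the number of arrays limits precision. Of 24128 probe sets, 13318 name 1 gene, 86 several and 10724 were not in the annotation table given. After 26 controls were left out, a gene was read through its brightest probe set, which gave 9155 genes. A linear model that gives each hour its own mean and has no cow term was fitted by limma 3.58.1 (R 4.3.3), leaving 30 residual degrees of freedom; scripts were tested on simulated data. The threshold was a Benjamini-Hochberg adjusted p below 0.05 over all probe sets.

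Replicate numbers in the titles do not follow the cows, so cows were paired through the cow labels. Deviations from the hourly means correlated at 0.335 on average between arrays of the same cow (0.116 to 0.553, 72 pairs) and at -0.0528 between cows. The members and lists were chosen with earlier results of these data known. Named were every member on each probe set, up to 4 genes per pathway list with the largest 9 h difference past the threshold, and the 6 genes most like and 3 most opposite to PPP1R3B. Alternatives were a cow block, leaving out each cow or the arrays that stand apart, the 4 fully sampled cows, centring on array medians, keeping only probe sets at a log2 of 5 or more on at least 4 arrays, array weights, a trended robust prior, means of probe sets, and a Bonferroni p below 0.01 as in the study's methods.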

Additional observations from a re-analysis of the deposited data

Results flagged for a closer look

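Of 78 sets of values (13 probe sets at 6 hours), 8 held a cow far from the others of its hour, and chance gives about 1 in 20. PGM1 of cow 2 at 48 h was 10.45 on the brighter probe set, where the next cow had 11.08, and 9.76 on the other, where the next had 10.53; this array is one of the 3 that stand apart. On the -22 h array of cow 7, another of the 3, GBE1 was 10.28 (next 10.77) and PYGB 5.82 (next 4.68). The third probe set of PPP1R3C had 8.45 in cow 3 at 12 h, where the others had 8.96 or more. PYGB had 4.01 in cow 7 at 6 h, 3.61 in cow 8 at 9 h and 4.82 in cow 5 at 48 h, each against a narrow range near the array medians. No value of PPP1R3B, UGP2, GYG1, GYS2 or PYGL was this far from its group.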

How the results depend on the processing

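The values of PPP1R3B picked the gene out, so whether it passed a threshold is given here as a description only. Every log2 difference of PPP1R3B kept its direction under all alternatives. With Bonferroni below 0.01 those at 3 h and 48 h against -22 h and at 9 h against 6 h were no longer past the threshold, and under the alternatives that kept Benjamini-Hochberg 2 changed side. At 3 h against -22 h it ran between -1.56 and -1.05 when single cows were left out (not past the threshold without cow 7, -1.05), and at 48 h against -22 h it was -0.89 with the 4 fully sampled cows (not past it). With the cow as a block, PPP1R3B differed by -6.93 at 9 h against -22 h (SE 0.20). The fixed block added GYG1 at 48 h against -22 h (-0.35) and against 12 h (-0.58, adjusted p = 0.0031), the random block added PYGB at 9 h (-0.41), and neither block changed any other call of the 9 genes.

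The number of the 9 genes past the threshold at 3 h against -22 h was 1 to 2 when single cows were left out. With Bonferroni below 0.01 it was 1 at 3 h, 3 at 6 h and 0 at 48 h against -22 h, 1 at 6 h against 3 h, 2 at 9 h against 6 h and 1 at 12 h against 9 h. With 4 cows it was 2 at 48 h against -22 h. Over all genes, the count at 3 h against -22 h was 335 with 4 cows, 1421 with array weights, 979 without the 3 arrays that stand apart and 125 with Bonferroni, against 644 in the fit as reported, and at 48 h it was 712 with 4 cows and 190 with Bonferroni, against 2855. The cause was not tested.

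Small differences of either sign turned over. UGP2 at 48 h against -22 h was 0.06 with median centring and -0.14 to 0.00 when single cows were left out, and PYGL at 3 h was -0.01 and -0.04 to 0.09 under the same alternatives. GYG1 at 12 h against -22 h was -0.05 without the -22 h array of cow 7, -0.05 without the 3 arrays, and -0.08 to 0.15 when single cows were left out. GYS2 at 12 h against 9 h was -0.81 to 0.12. PYGB was 0.05 with median centring and -0.15 to 0.13 without single cows at 6 h against 3 h, and 0.02 with array weights and -0.06 to 0.05 at 9 h against 6 h. GYG1 at 48 h against 9 h (0.38 to 0.52) lost its call without cow 1, 2, 3, 4, 6 or 8, and GYS2 at 48 h against -22 h (0.56 to 0.71) without cow 2, 3, 4, 5, 6 or 7. GBE1 lost its call at 12 h against 9 h with 4 cows (-0.59, adjusted p = 0.05) and at 9 h against 6 h without cow 1 (-0.52, adjusted p = 0.052). The alternatives without arrays that stand apart were chosen after seeing the data. Signals near or below the array medians limit what can be read there. Among them were PYGB at all hours and PPP1R3B, GALT, PHKA2, INSR and PRKAA1 at 9 h.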
